A study of Homo sapiens with 33 samples.

Results

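UM-SCC-1 (SCC1) and UM-SCC-6 (SCC6) are established human head and neck squamous cell carcinoma (HNSCC) cell lines, each grown from the tumour of a single patient, and the comparison described here set the untreated cells of one line against those of the other, gene by gene. All libraries of the bulk RNA sequencing count table that carried the line SCC1 or SCC6 and the vehicle PBS were taken, which gave 12 of the 33 libraries of the series, 6 per line. Each line had 1 library at each of days 0, 1, 2, 3, 4 and 5, so that the days served in place of replicates. A p-value of a line difference below thus measures it against the spread over days. The p-values of line-by-day terms come from a fit with day in it, and test whether the line difference changed with day. By the labels SCC1 was kept in DMEM with fetal bovine serum and 1 µg/mL hydrocortisone, a glucocorticoid hormone, whereas they give high-glucose DMEM with non-essential amino acids for SCC6 and name no hydrocortisone. The methods of the study instead describe a common medium for its lines and do not mention the hormone. If the media differed, the line and its medium cannot be told apart. For both lines 25000 cells were plated per well and PBS was renewed daily, as the vehicle of cetuximab, an antibody that blocks the epidermal growth factor receptor (EGFR). The cetuximab libraries of the same lines, 5 per line at 100 nM, were used only as other libraries in which to look at the same line difference.

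Squamous carcinomas of the head and neck arise from stratified epithelium, in which basal cells carry keratins 5 and 14 and the transcription factor p63, and cells that leave the basal layer switch on envelope proteins such as involucrin. Lines grown from such tumours keep parts of this programme to different degrees, together with EGFR signalling, which feeds the ERK cascade and AP-1 factors. They can also carry gains or losses of chromosome segments, which shift the RNA of neighbouring genes together, and differ in how strongly they express the genes that interferons induce.

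Each library held between 28508758 and 47225163 estimated counts, with 36337093 to 47225163 in SCC1 and 28508758 to 40302162 in SCC6. Across genes, log2 levels correlated at 0.972 to 0.996 between SCC1 libraries and at 0.759 to 0.807 between the lines. Among SCC6 libraries the values reached down to 0.921, since days 0 and 1 (r = 0.995 with each other) stood apart from days 2 to 5 (0.921 to 0.962). SCC6 days 0 and 1 were run on the flow cell called C here, together with SCC1 day 5, whereas SCC1 days 0 to 4 were run on flow cell B and SCC6 days 2 to 5 on flow cell D. Within flow cell C only 1 SCC1 library faces 2 of SCC6, of other days. A fit with the flow cell as a term takes its line difference from the same libraries alone, since flow cells B and D each held 1 line in this comparison. Calls and counts from either setting thus rest on SCC1 day 5 against SCC6 days 0 and 1. In the label check, the squamous or epithelial markers EPCAM (215 to 293 CPM in SCC1, 211 to 322 in SCC6), KRT17 (363 to 773 and 385 to 1341) and EGFR were present in every library of both lines, with CPM standing for counts relative to the library total after TMM scaling (a correction for differences in library composition), not adjusted for gene length. The basal keratins KRT5 and KRT14 and the desmosomal cadherin DSG3 (1.49 to 5.26 CPM) were low in SCC6, against 36.8 to 63.2 CPM for DSG3 in SCC1. Of the 12 squamous carcinoma markers, all tested, 4 were called higher in each line. Markers of other cell types were mostly untested for lack of counts. Of 12 leukocyte markers 4 were tested and 3 called higher in SCC1, with PTPRC, CD3D and CD3E under 0.06 CPM on average in both lines. Other members were expressed, as the 12 summed to 118.2 to 247.3 CPM in SCC1 and 146.3 to 193 CPM in SCC6. Of 12 melanocyte and muscle markers 3 were tested, and the transcription factor MITF was called higher in SCC6 (4.00 ± 0.910 against 39.5 ± 11.7 CPM). Of 10 endothelial markers 7 were tested, with 4 called higher in SCC1, among them the VEGF receptor KDR (9.13 ± 3.58 against 0.0301 ± 0.0356 CPM), and 2 higher in SCC6. PECAM1 and VWF, 2 defining genes of endothelium, averaged at most 0.526 CPM in either line.

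The lines differed over most of the transcriptome. Of 17976 genes tested with edgeR, 12316 (68.5%) had an adjusted p under 0.05, of which 6212 (34.6% of tested genes) were higher in SCC1 and 6104 (34.0%) were higher in SCC6. With a difference of at least 4-fold asked for in addition, 2517 genes (14.0%) remained, 1279 (7.12%) higher in SCC1 and 1238 (6.89%) higher in SCC6. In 8905 genes (49.5%) the values of the lines did not overlap over the 12 libraries. Counts of list members below are to be read against these shares of all tested genes. Differences are given below as log2(SCC1/SCC6), positive where SCC1 was higher, with their standard error, and levels as CPM with the SD over the 6 libraries of a line. The median absolute difference was 0.632, and 3088 genes (17.2%) had a 95% interval within 0.5 of 0 on the log2 scale. Scaling by total count alone moved the median of all genes from 0.014 to 0.222, and the share of called genes that were higher in SCC1 from 50.4% to 62.1%. In the cetuximab libraries, where 12951 of 18503 genes (70.0%) were called, 2377 of the 2517 genes could be tested, and 2291 (96.4%) were called in the same direction and 9 in the opposite direction. There line and flow cell cannot be told apart, with SCC1 all on flow cell C and SCC6 on flow cells D and E. By the labels SCC6 had no cetuximab library of day 1 and more than 1 of day 2. The scatter of mean levels shows both sides of the difference, with 61 called genes at 0 counts in all SCC6 libraries and 31 at 0 in all SCC1 libraries.

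**Figure D1:**
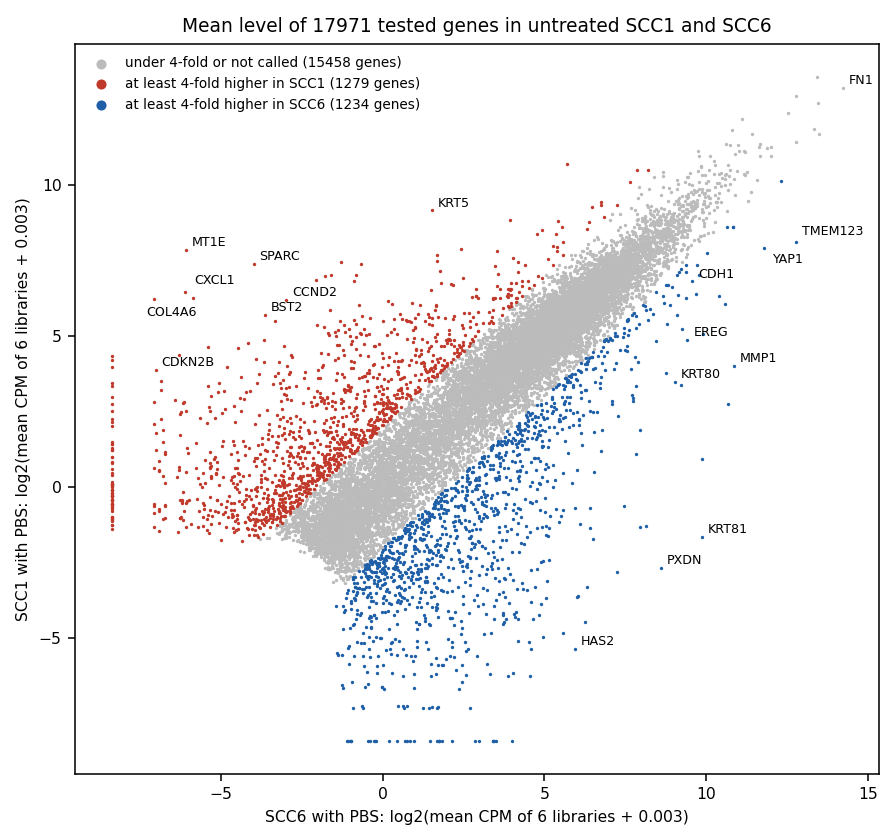
Mean level of each tested gene in SCC6 (horizontal axis) and SCC1 (vertical axis), both as log2(mean CPM of 6 libraries + 0.003), with genes at least 4-fold higher in SCC1 in red (1279) and in SCC6 in blue (1234), XIST and genes of chromosome Y not drawn. The columns of points at the left and bottom edges are genes with 0 counts in one line.

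The largest differences were close to presence against absence. MT1E, a metal-binding metallothionein, had a lowest, median and highest value of 205, 235 and 267 CPM in SCC1 and was absent or nearly so in SCC6 (0 to 0.0361 CPM), a ratio of 21890 with a 95% counting interval of 6059 to 180700. The neighbouring X-linked basement membrane collagens COL4A6 (74.9 ± 7.16 CPM) and COL4A5 (76.5 ± 9.95 CPM) averaged 0.00437 and 0.0143 CPM in SCC6. HLA-DQB1, a class II antigen-presenting chain, ARMCX1, an armadillo-repeat protein gene of the X chromosome, and DMRTA2, a transcription factor, had no counts in any SCC6 library, which makes them at least 1271-fold, 1178-fold and 984-fold higher in SCC1. SPARC, a secreted collagen-binding protein, ranged over 130.3 to 216 CPM in SCC1 and over 0 to 0.113 CPM in SCC6. CXCL1, a neutrophil-attracting chemokine, TBX18, a T-box transcription factor, BST2, a membrane protein that tethers viruses, CCND2, the cell cycle regulator cyclin D2, and MT1L, a metallothionein pseudogene whose reads may be shared with its relatives, completed the 12 with the largest difference in favour of SCC1.

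In the other direction stood KRT81, a keratin known best from hair, with 0.183, 0.310 and 0.422 CPM (lowest, median and highest) in SCC1 and 757, 908 and 1103 CPM in SCC6, a difference of -11.51 ± 0.19 (edgeR adjusted p = 9.6e-15). PXDN, a peroxidase that cross-links basement membrane collagen, followed with 0.154 ± 0.0595 CPM in SCC1 and 389 ± 61.0 CPM in SCC6. HAS2, which makes hyaluronan, had 0.0216 ± 0.0225 against 61.8 ± 20.4 CPM. SPOCK1, a secreted proteoglycan, had 0.139 ± 0.0329 against 153 ± 44.7 CPM. The semaphorin SEMA5A (76.9 CPM in SCC6) and the semaphorin and VEGF co-receptor NRP2 (47.9 CPM) were both under 0.1 CPM on average in SCC1. SRGN, a proteoglycan core protein of secretory granules, had 3 counts in SCC1, so that its ratio of 2140 in favour of SCC6 has a 95% counting interval of 732 to 10380. CEACAM6, a cell adhesion glycoprotein, MAP9, a microtubule-associated protein, CALB2, the calcium-binding calretinin, GLB1L2, a galactosidase-like protein, and the protease MMP10 made up the rest of the 12. Ranges that do not overlap were part of the rule by which these 24 genes were named, and the strip plot shows how wide the gaps were.

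**Figure D2:**
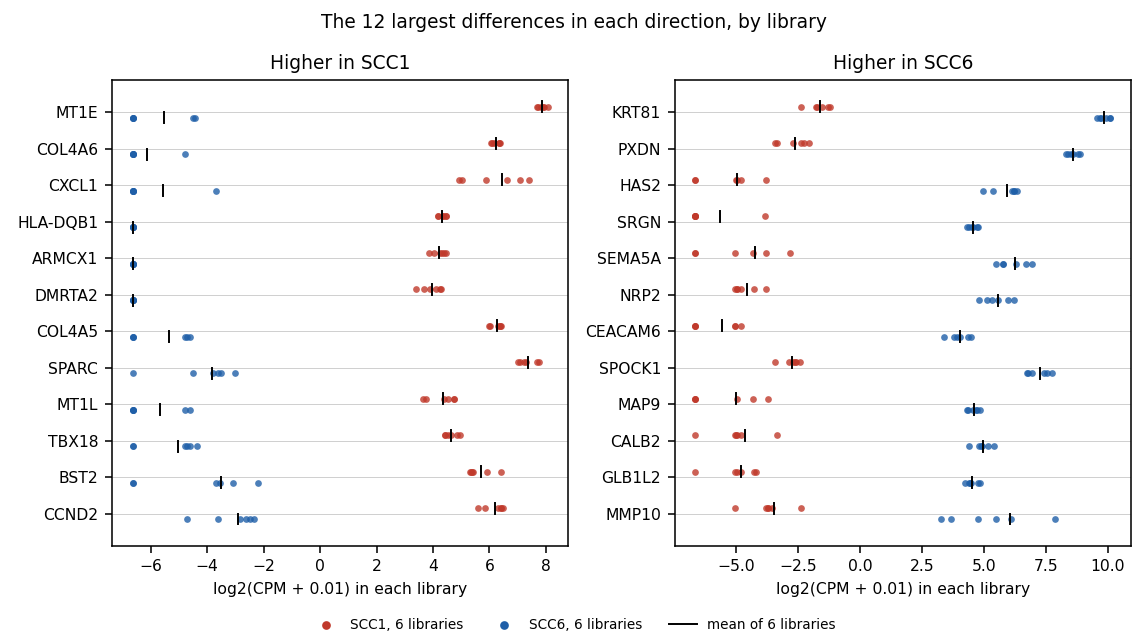
The 12 largest differences in each direction, with each point 1 library (red SCC1, blue SCC6; horizontal axis log2(CPM + 0.01)) and the black bar the log2 of the mean of 6 libraries + 0.01. The leftmost column of points in each panel holds libraries with 0 counts, and genes were chosen for not overlapping between the lines.

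Genes that interferons induce were nearly all higher in SCC1. All 26 members were tested, 25 were called higher in SCC1 and none higher in SCC6, and 20 were at least 4-fold higher, against 7.12% of all tested genes. Their median difference was 3.28 (median over all tested genes 0.014). Without SCC6 days 0 and 1 the list kept 25 calls, with 17 at 4-fold or more and a median of 2.96, and in the cetuximab libraries it had 25 calls and a median of 2.89. Many of these genes encode proteins that block virus replication. BST2 had a lowest, median and highest value of 39.4, 42.0 and 85.1 CPM in SCC1 and of 0, 0.0723 and 0.210 CPM in SCC6, a difference of 9.30 ± 0.41 (edgeR adjusted p = 1.1e-10). IFI27, a mitochondrial protein that interferon alpha induces, had 69.4, 106 and 252 CPM in SCC1 and 0, 0.245 and 0.722 CPM in SCC6. For OAS2 and OAS3, enzymes that sense double-stranded RNA, the values were 38.9, 51.9 and 318 CPM and 262, 311 and 884 CPM in SCC1, with 0.141, 0.319 and 1.49 CPM and 36.9, 42.7 and 50.2 CPM in SCC6. No library of SCC6 reached the lowest SCC1 library in any of these. MX1, a GTPase that traps viral particles (4.52 ± 0.61), IFIT1, which binds viral RNA (3.24 ± 0.60), ISG15, a ubiquitin-like modifier (2.19 ± 0.31), and the interferon regulatory factors IRF7 (6.04 ± 0.39) and IRF9 (1.74 ± 0.25) were all called.

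The summed level of the 26 genes was not steady in SCC1, with 1267, 1180, 1168, 1413, 2917 and 4143 CPM on days 0 to 5, and moved less in SCC6, with 329.9, 364.4, 420.2, 416.2, 510.8 and 474.2 CPM. The SCC1 sum was above every SCC6 sum on every day, and was highest on the last days. Line-by-day terms were called for 8 of the 26 genes, all with a difference that grew towards SCC1, where 12.8% of all tested genes had such an upward term and 23.3% a term in either direction. Without SCC1 day 0 the count of terms called over all genes fell from 4192 to 1050. Within flow cell C, where the SCC1 library is that of day 5, the median difference was 4.8. That value sets 1 SCC1 library, the one with the highest sum, against 2 of SCC6. In bulk RNA, fewer cells that express a gene and less RNA in each cell cannot be told apart.

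Interferon acts on such genes through the interferon-stimulated response element, and promoter sequences are shown for 4 of them because the letters of that element are in them. For 20 of the 26 genes, RefSeq (GRCh38.p14) gave the 250 bases before the start of transcription, and 17 (85%) of these windows held the core letters AAANNGAAA or their reverse complement TTTCNNTTT, N being any base. The share was 6.45% of 11757 windows of tested genes, 13.3% of 752 windows of genes at least 4-fold higher in SCC1 and 4.73% of 782 windows of those at least 4-fold higher in SCC6. MX1, IRF9 and RSAD2, an antiviral enzyme, had windows without these letters. Overlapping matches count separately. Below, each window runs 5′ to 3′ on the gene's strand with the matches in capitals, for BST2 (chr19:17405631-17405880, minus strand), IFI27 (chr14:94110486-94110735, plus strand), IFIT1 (chr10:89392373-89392622, plus strand) and ISG15 (chr1:1013247-1013496, plus strand).
BST2: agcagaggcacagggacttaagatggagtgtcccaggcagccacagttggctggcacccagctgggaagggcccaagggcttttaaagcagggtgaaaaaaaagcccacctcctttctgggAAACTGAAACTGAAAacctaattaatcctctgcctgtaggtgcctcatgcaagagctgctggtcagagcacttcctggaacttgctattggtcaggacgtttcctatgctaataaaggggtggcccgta
IFI27: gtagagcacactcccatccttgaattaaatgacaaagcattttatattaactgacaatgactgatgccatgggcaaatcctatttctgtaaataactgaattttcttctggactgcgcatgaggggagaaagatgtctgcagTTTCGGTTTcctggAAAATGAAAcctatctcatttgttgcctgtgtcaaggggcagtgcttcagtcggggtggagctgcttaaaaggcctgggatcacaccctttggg
IFIT1: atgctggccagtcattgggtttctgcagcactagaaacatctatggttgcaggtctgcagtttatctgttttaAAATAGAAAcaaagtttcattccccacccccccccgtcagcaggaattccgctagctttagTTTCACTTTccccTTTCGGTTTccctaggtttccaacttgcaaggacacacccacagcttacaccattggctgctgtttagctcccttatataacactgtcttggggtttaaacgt
ISG15: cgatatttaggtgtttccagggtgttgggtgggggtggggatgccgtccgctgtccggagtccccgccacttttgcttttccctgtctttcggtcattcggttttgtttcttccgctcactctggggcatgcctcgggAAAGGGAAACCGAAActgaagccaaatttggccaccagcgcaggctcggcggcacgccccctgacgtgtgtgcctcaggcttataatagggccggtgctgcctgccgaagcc

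BST2 and ISG15, the largest and the smallest of these 4 differences, both carried matches whose letters overlap, and IFIT1 carried 3 matches. A match of letters describes the window and shows no binding. CpG dinucleotides were fewer in the windows of genes at least 4-fold higher in SCC1 (median 13.5 per window) than in those of genes higher in SCC6 (18) and over all tested genes (20), and the 20 interferon gene windows had a median of 5.

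Antigen presentation genes lay on the same side. Of 23 tested members of 25, 18 were called higher in SCC1 (34.6% of all tested genes) and 1 higher in SCC6 (34.0%), with 9 and 1 at least 4-fold apart and a median of 1.37. HLA-B, a class I chain that shows peptides to T cells, had 191, 216 and 289 CPM (lowest, median, highest) in SCC1 and 9.22, 11.7 and 13.5 CPM in SCC6. HLA-C had 296, 329 and 379 CPM and 22.8, 27.7 and 31.8 CPM. The lines were far apart in both. HLA genes vary in sequence between people, so that counts against a common reference are uncertain for them. Members without such variation were called as well. PSMB9, an immunoproteasome subunit, had 31.3 ± 5.43 CPM in SCC1 and 0.562 ± 0.599 CPM in SCC6, TAP1, which carries peptides into the endoplasmic reticulum, 93.2 ± 23.6 and 14.8 ± 2.44 CPM, and B2M, the invariant class I light chain, 955 ± 188 and 463 ± 133 CPM. NLRC5, a transcriptional activator of class I genes, differed by 1.5 ± 0.22. The checkpoint ligand CD274 (PD-L1) had 15.5 to 56.0 CPM in SCC1 and 19.5 to 39.1 CPM in SCC6 and was not called (0.16 ± 0.25, 95% interval -0.39 to 0.71). With the flow cell in the fit the difference was 1.32, and without SCC6 days 0 and 1 it was -0.007.

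Keratins differed in both directions. KRT5 and KRT14, the paired keratins of basal cells, had 277, 537 and 1043 CPM and 146, 236 and 365 CPM (lowest, median and highest) in SCC1, against 1.75, 2.37 and 5.51 CPM and 1.84, 4.19 and 12.5 CPM in SCC6. Every SCC1 library was above every SCC6 library by a wide margin. TP63, the basal transcription factor p63, was also higher in SCC1 (114 ± 19.4 against 40.8 ± 8.03 CPM, difference 1.48 ± 0.14), as were the hemidesmosomal collagen COL17A1 (1.99 ± 0.38) and PDPN, a membrane glycoprotein of invasive fronts (2.63 ± 0.26). Other members of the basal list went the other way, including KRT15 (5.51 ± 0.760 against 24.7 ± 2.73 CPM) and KRT6B, a keratin of activated epidermis (1.41 ± 0.925 against 92.3 ± 83.6 CPM). With 6 of 17 tested genes called in each direction over all days, the basal list as a whole was close to the shares of all tested genes. Its summed level went from 15980 CPM on day 0 to 4383 CPM on day 5 in SCC6, and from 8130 to 10960 CPM in SCC1. For 10 of the 17 genes the difference was called as growing towards SCC1 with day, against 12.8% of all tested genes. The median was -0.455 over all days, 0.019 over days 2 to 5 and 0.52 in the cetuximab libraries.

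The keratins of simple epithelia were higher in SCC6. KRT8 had 856, 1157 and 1443 CPM in SCC1 and 2807, 5460 and 6934 CPM in SCC6, and its partner KRT18 584, 929 and 1084 and 1828, 2752 and 3153 CPM. KRT19 differed by -2.77 ± 0.13, with 885 ± 161 CPM in SCC6. None of the 3 overlapped between the lines. Junction proteins followed the same direction, with CDH1 (E-cadherin) at 112 ± 13.7 CPM in SCC1 and 767 ± 148 CPM in SCC6 and the tight junction protein CLDN4 at 38.0 ± 7.35 and 618 ± 295 CPM. The epithelial transcription factors ELF3 (-4.01 ± 0.40) and OVOL1 (-2.45 ± 0.26) were higher in SCC6, whereas OVOL2 was higher in SCC1 (1.27 ± 0.30), though not within flow cell C (0.04). Of 23 tested members of the epithelial list, 15 were called higher in SCC6 (34.0% of all tested genes) and 2 in SCC1 (34.6%), with a median of -0.66. In the cetuximab libraries the counts were 10 and 5, without SCC6 days 0 and 1 they were 17 and 5 of 24, and with the flow cell in the fit they were 17 and 0 with a median of -1.03.

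Genes of squamous differentiation were also mostly higher in SCC6. Of 32 members 21 were tested, 15 were called higher in SCC6 and 3 in SCC1, and 12 were at least 4-fold higher in SCC6 (6.89% of all tested genes), with a median of -2.64. IVL (involucrin), which is built into the cornified envelope, had 0.123, 0.308 and 0.406 CPM (lowest, median and highest) in SCC1 and 6.84, 12 and 13.4 CPM in SCC6. KRT80, a filament protein of epithelial cells, had 8.48, 11.8 and 13.3 and 342, 547 and 613 CPM. The small proline-rich proteins, which are cross-linked into the envelope, were at or near 0 in SCC1: SPRR3 had no counts there and 1.61 to 12.2 CPM in SCC6 (at least 644-fold lower in SCC1), and SPRR1B had 0.149 ± 0.148 against 27.1 ± 13.4 CPM. The kallikrein protease KLK5, which acts in shedding of the outermost cells, had 0.396 ± 0.190 against 30.5 ± 12.7 CPM. RHCG, an ammonium transporter (1.22 ± 0.317 against 0.0159 ± 0.0179 CPM), and SERPINB3, a protease inhibitor (2.04 ± 0.60), were at least 4-fold higher in SCC1. The 11 members that were not tested, among them KRT1, KRT4 and LOR of the late layers, averaged at most 0.191 CPM in either line. In the cetuximab libraries, where SCC6 members of the SPRR family were too low to be tested, 7 members were called higher in SCC6 and 4 in SCC1, with a median of -0.17.

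**Figure D3:**
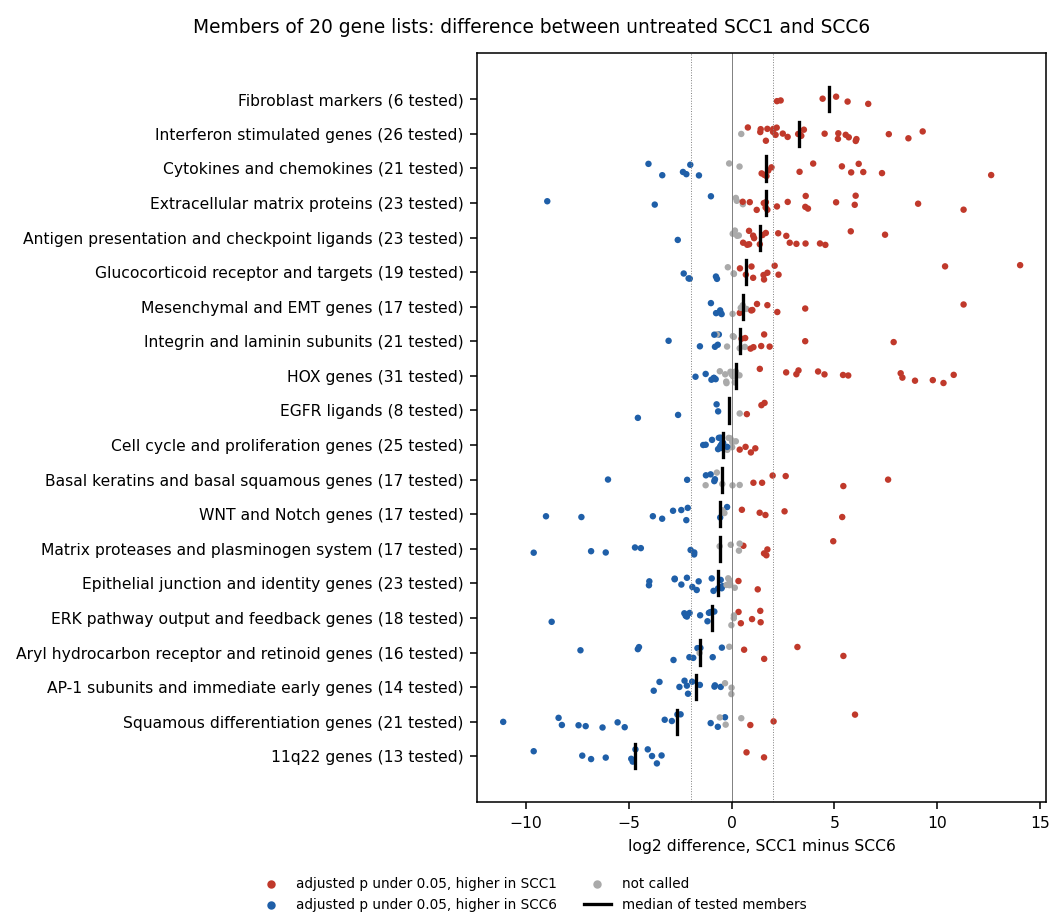
Difference between the lines (horizontal axis, log2 SCC1 minus SCC6) for each tested member of 20 gene lists, in red where called higher in SCC1, blue where called higher in SCC6 and grey where not called, with the median of each list as a black bar. Dotted lines mark 4-fold. Interferon stimulated genes lie almost wholly to the right and 11q22 genes almost wholly to the left.

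Extracellular matrix genes leaned towards SCC1, with 17 of 23 tested members of 26 called higher there (34.6% of all tested genes) and 3 higher in SCC6 (34.0%). Of these, 10 and 2 were at least 4-fold apart, and the median was 1.67. Without SCC6 days 0 and 1 the counts were 19 and 3, with 13 and 2 at 4-fold or more, and the median 2.15. Beside SPARC, the network collagen COL8A1 had 204 ± 30.1 CPM in SCC1 and 3.20 ± 1.06 CPM in SCC6, the microfibrillar collagen chain COL6A2 24.5 ± 8.78 and 0.0419 ± 0.0269 CPM, and the fibrillar collagen chain COL1A2 8.75 ± 1.95 and 0.257 ± 0.113 CPM. FN1 (fibronectin) had the opposite order, with 7302, 9466 and 12190 CPM (lowest, median, highest) in SCC1 and 12960, 20260 and 24560 CPM in SCC6. COL18A1 (-3.74 ± 0.46) and COL13A1, which had no counts in SCC1, were also higher in SCC6. With the flow cell in the fit the counts were 16 and 3 and the median 1.06. In the cetuximab libraries 12 members were called higher in SCC1 and 9 higher in SCC6, and COL4A1, a basement membrane collagen, went from 1.67 with PBS to -1.47 there. The markers that fibroblasts share with matrix-producing cells were higher in SCC1 as well: all 6 that were tested of 12 were called. FAP, a membrane protease of activated fibroblasts, had 35.1 ± 4.47 against 0.354 ± 0.147 CPM and TAGLN, an actin-binding protein, 82.4 ± 24.3 against 15.8 ± 1.40 CPM, whereas COL3A1, DCN, LUM, PDGFRA, PDGFRB and THY1 averaged at most 0.26 CPM in both lines. The summed level of the 12 was 123.4 to 197.1 CPM in SCC1 and 18.3 to 23.8 CPM in SCC6, and its part in the matrix values was not tested.

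Genes of the epithelial-mesenchymal transition (EMT) were called in both directions. Of 17 tested members of 20, 8 were called higher in SCC1 and 5 in SCC6, with a median of 0.54. Without SCC6 days 0 and 1 the counts were 11 and 5 with a median of 0.80, and with total-count scaling 12 and 3. With the flow cell in the fit the median was 0.38. In the cetuximab libraries the list leaned the other way, with 5 called higher in SCC1, 8 in SCC6 and a median of -0.43. ITGA5, the fibronectin receptor chain (361 ± 111 against 30.2 ± 11.6 CPM), FSTL1, a secreted glycoprotein (2.22 ± 0.07), and the repressor of E-cadherin SNAI2 (1.01 ± 0.14) were higher in SCC1. CDH2 (N-cadherin, -0.53 ± 0.10) and the hyaluronan receptor CD44 (-0.76 ± 0.11) were higher in SCC6, CDH2 without a call when the flow cell was in the fit (-0.48). VIM, the mesenchymal intermediate filament vimentin, had 81.9, 109.6, 208, 241, 236 and 141 CPM in SCC1 on days 0 to 5 and 177, 168, 113, 79.7, 47.2 and 35.9 CPM in SCC6. SCC6 was higher on days 0 and 1 and SCC1 from day 2 on, and the pooled difference of 0.72 ± 0.38 was not called (edgeR adjusted p = 0.11). It was called at 1.30 without SCC6 days 0 and 1 (edgeR adjusted p = 0.0053), at 1.59 over days 2 to 5 (0.00063), at 1.06 over days 1 to 5 (0.026) and at 0.94 without SCC6 day 0 (0.043). The line-by-day term was called, at 0.73 ± 0.12 log2 units per day (edgeR adjusted p = 0.0025). Within flow cell C, with 1 SCC1 library against 2 of SCC6, the difference had the opposite sign (-0.25). In the cetuximab libraries VIM was called higher in SCC6 (-4.83, edgeR adjusted p = 3.4e-07). AXL, a receptor tyrosine kinase often raised together with vimentin, had 187 to 268 CPM in SCC1 and 196 to 288 CPM in SCC6 (difference 0.05 ± 0.11, 95% interval -0.20 to 0.29) and -1.62 in the cetuximab libraries.

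EGFR itself was expressed at 574, 588 and 620.2 CPM (lowest, median and highest) in SCC1 and at 859.6, 931 and 1014 CPM in SCC6, without overlap. The difference in EGFR was -0.65 ± 0.06 (edgeR adjusted p = 2.9e-07), but -0.18 and not called in the cetuximab libraries (edgeR adjusted p = 0.094). ERBB2, its dimerisation partner, was higher in SCC1 (105 ± 1.59 against 62.3 ± 17.8 CPM, 0.75 ± 0.15), and ERBB3 was not called (-0.23 ± 0.13). Among the ligands, EREG (epiregulin) had 21.9, 27.4 and 38.4 CPM in SCC1 and 466, 729 and 976 CPM in SCC6, and HBEGF (heparin-binding EGF-like growth factor) had 21, 72 and 106 and 329.9, 407 and 525 CPM. AREG (amphiregulin, -0.73 ± 0.17) and TGFA (transforming growth factor alpha, -0.66 ± 0.17) leaned the same way, while EPGN (epigen, 1.60 ± 0.27) and the ERBB3 and ERBB4 ligands NRG1 (0.74 ± 0.20) and NRG4 (1.45 ± 0.25) were higher in SCC1. With the flow cell in the fit, AREG (-0.42), TGFA (-0.53), NRG1 (0.87) and NRG4 (0.78) were no longer called. The difference in EREG was -3.41 and that in HBEGF -3.36 in the cetuximab libraries. Of 8 tested ligands of 11, 3 were called higher in SCC1 and 4 in SCC6. Among 21 tested receptor tyrosine kinases and related receptors of 26, 7 were called higher in SCC1, led by MERTK (3.46 ± 0.39), a relative of AXL, and 10 in SCC6, led by the neurotrophin receptor NTRK2 (-5.99 ± 0.54). The fibroblast growth factor receptor FGFR1 was higher in SCC6 (0.914 ± 0.195 against 6.09 ± 1.80 CPM), as were IGF1R (-0.61 ± 0.11) and the TGF-beta co-receptor TGFBR3 (-1.0 ± 0.11). TGFBR3 had the opposite sign in the cetuximab libraries (1.21). MET, the hepatocyte growth factor receptor (0.65 ± 0.09), was higher in SCC1. VEGFA, the angiogenic growth factor, was not called (282 ± 53.9 against 259 ± 46.8 CPM, 95% interval of the difference -0.18 to 0.43).

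Targets downstream of ERK were divided. MYC had 95.5, 147 and 167 CPM in SCC1 and 450, 563 and 757 CPM in SCC6 (-2.05 ± 0.17), and EGR1, an immediate early transcription factor, 36.9, 41.5 and 75.3 and 208, 231 and 247 CPM (-2.18 ± 0.18). EPHA4, an ephrin receptor, was nearly absent from SCC1 (0.0660 ± 0.0370 against 29.7 ± 7.27 CPM). CCND1 (cyclin D1, -0.84 ± 0.09), the feedback inhibitor SPRY2 (-2.30 ± 0.21) and the phosphatase DUSP4 (-1.11 ± 0.19) were also higher in SCC6. DUSP6, the phosphatase of ERK (1.41 ± 0.19), SPRY4 (1.39 ± 0.22) and the ETS factor ETV5 (0.99 ± 0.14) were higher in SCC1, with DUSP6 (0.87) and SPRY4 (0.82) not called with the flow cell in the fit. Over the list 10 of 18 members were called higher in SCC6 and 5 in SCC1. AP-1 subunits and immediate early genes went one way: 11 of 14 tested members of 15 were called higher in SCC6 (34.0% of all tested genes) and none in SCC1 (34.6%), with a median of -1.73. JUNB (64.0 ± 18.2 against 279 ± 176 CPM), JUND (-1.55 ± 0.21), ATF3 (-1.92 ± 0.21) and IER2 (-2.54 ± 0.26) were among them. Without SCC6 days 0 and 1 the count was 10 and the median -1.51, with the flow cell in the fit 10 and -1.05, and in the cetuximab libraries 11 of 12 tested members were called higher in SCC6. The letters of an AP-1 site (TGANTCA, read the same on both strands apart from N) were in 7.29% of the windows before the start of genes at least 4-fold higher in SCC6, in 5.72% of those higher in SCC1 and in 4.38% of all tested windows.

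Cytokines split into separate sets. In SCC1, CXCL1 had 30.2, 32.3, 58.8, 97.9, 169.5 and 136 CPM on days 0 to 5 and at most 0.0683 CPM in any SCC6 library. IL24, a cytokine of the interleukin-10 family (42.0 ± 19.7 against 0.567 ± 0.194 CPM), the inflammatory cytokine IL6 (23.5 ± 13.6 against 0.563 ± 0.138 CPM) and the chemokine CCL20 (3.97 ± 0.57) did not overlap between the lines, and the interleukin-1 cytokines IL1A (1.69 ± 0.27) and IL1B (1.78 ± 0.35) were called with some overlap. The chemokines CXCL10 (6.43 ± 6.91 against 0.0385 ± 0.0563 CPM) and CXCL11 (5.97 ± 5.47 against 0.113 ± 0.127 CPM), which interferons also induce, were higher in SCC1. SCC6 had the higher values of CSF2, the granulocyte-macrophage colony-stimulating factor (0.972 ± 0.429 against 16.2 ± 5.76 CPM), the interleukin-6 family members LIF (87.6 ± 46.2 against 354 ± 62.3 CPM) and IL11 (-2.21 ± 0.23), the interleukin-1 receptor antagonist IL1RN (-3.38 ± 0.22), and the neutrophil chemokines CXCL3 (-2.37 ± 0.27) and CXCL8 (-1.59 ± 0.39, but -0.05 within flow cell C). In all, 13 of 21 tested members of 27 were called higher in SCC1 (34.6% of all tested genes) and 6 higher in SCC6 (34.0%). IL1RN was higher in SCC1 in the cetuximab libraries (1.63).

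The proteases that cut matrix showed a similar division. MMP9, a gelatinase, had 17.9, 107 and 185 CPM (lowest, median and highest) in SCC1 and 0.902, 3.11 and 6.58 CPM in SCC6. The other gelatinase MMP2 had 1.00, 1.60 and 1.96 and 22, 26.4 and 53 CPM. The lines thus held opposite orders for the 2 enzymes. The collagenases MMP1 (16.1 ± 11.6 against 1851 ± 1639 CPM) and MMP13 (0.389 ± 0.166 against 27.5 ± 16.5 CPM), the stromelysin MMP10 (0.0791 ± 0.0544 against 65.7 ± 84.6 CPM) and the serpin SERPINE2 (3.58 ± 0.724 against 93.3 ± 29.5 CPM) were higher in SCC6. The urokinase receptor PLAUR was higher in SCC6 (-2.0 ± 0.31) while its ligand PLAU was not called (0.35 ± 0.25), and MMP14, a membrane-bound protease, was higher in SCC1 (1.69 ± 0.37, 0.69 and not called with the flow cell in the fit). Of 17 tested members of 18, 8 were called higher in SCC6 and 5 in SCC1, with a median of -0.59. Without SCC6 days 0 and 1 the counts were 10 and 5 of 18 and the median -1.20.

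Among transcription factors of squamous and neighbouring epithelia, TFAP2A (AP-2 alpha) had 91.0, 95.6 and 101 CPM in SCC1 and 42.0, 49.2 and 56.4 CPM in SCC6 (0.97 ± 0.08, edgeR adjusted p = 3.8e-08), and the same difference in the cetuximab libraries (0.98 there). Its relative TFAP2C had the opposite order (6.21, 7.36 and 11 CPM and 33.5, 38.1 and 41.9 CPM). GATA3 (1.71 ± 0.212 against 33.4 ± 6.57 CPM) and FOXA1 (1.66 ± 1.15 against 38.2 ± 11.1 CPM), factors better known from luminal epithelia, were 4-fold or more higher in SCC6, together with PAX9 (-2.66 ± 0.19), FOXE1 (-2.32 ± 0.19) and PITX1 (-2.01 ± 0.21) of the oral and pharyngeal epithelium. The zinc finger factor of differentiation ZNF750 was higher in SCC1 (1.79 ± 0.27), and KLF5, a factor of epithelial growth, higher in SCC6 (-1.53 ± 0.11). Of the 20 tested members 10 were called higher in SCC6 and 6 in SCC1.

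HOX genes, which keep a record of position along the body axis, differed by cluster. Of 31 tested members of 34, 14 were called higher in SCC1 and 6 in SCC6, and the 13 with a difference of at least 4-fold were all higher in SCC1 and all came from the HOXB and HOXD clusters. HOXD13 (5.77 ± 0.754 CPM), HOXD9 (4.09 ± 0.951 CPM), HOXB3 (2.85 ± 0.471 CPM) and HOXB5 (1.02 ± 0.284 CPM) had no counts in SCC6, and HOXD10 had 27.3 ± 3.53 against 0.0530 ± 0.0562 CPM. Members of the HOXA cluster differed less and in the other direction, with HOXA9 at 2.34 ± 0.315 CPM in SCC1 and 7.91 ± 0.887 CPM in SCC6 and HOXA10 at 21.1 ± 3.01 and 38.3 ± 2.80 CPM. In the cetuximab libraries 10 members were at least 4-fold higher in SCC1 and 2 at least 4-fold higher in SCC6.

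Neighbouring genes moved together in several places. When tested genes were ordered along each chromosome (GRCh37, GENCODE annotation) and read in runs of 25, the lowest median, -3.69, lay on chromosome 11 from SRSF8 to MMP13 (chr11:94800083-102826461). The first 9 genes of that run, from SRSF8 to JRKL, differed by at most 0.672 in size, and the next 13, from CNTN5 to MMP1, were all at least 4-fold higher in SCC6. YAP1, the effector of the Hippo pathway, had 231, 241 and 249 CPM (lowest, median and highest) in SCC1 and 3253, 3528 and 3840 CPM in SCC6. BIRC2 and BIRC3, inhibitors of apoptosis, had 70.6, 81.1 and 83.0 and 19.7, 32.5 and 51.4 CPM in SCC1, and 1089, 1413 and 1571 and 388, 1071 and 1519 CPM in SCC6. The difference was -3.88 ± 0.07 for YAP1, -4.08 ± 0.11 for BIRC2, -4.82 ± 0.38 for BIRC3 and -4.68 ± 0.15 for TMEM123, a cell surface mucin-like protein with 7046 ± 1576 CPM in SCC6. ARHGAP42, a GTPase-activating protein, had 0.647 ± 0.137 against 176 ± 26.5 CPM. Beyond the run, DCUN1D5, a neddylation factor (-3.41 ± 0.06), and DYNC2H1, a motor of cilia (-3.64 ± 0.09), continued the block, and PDGFD was higher in SCC1 (0.72 ± 0.22). MMP3, which lies between MMP1 and MMP12, was higher in SCC1 (1.58 ± 0.45, 0.70 and not called within flow cell C). Of the 16 genes of the 11q22 list 13 were tested, with 11 at least 4-fold higher in SCC6 and 2 called higher in SCC1. The median of the run was -3.77 without SCC6 days 0 and 1, -2.96 within flow cell C and -3.56 in the cetuximab libraries. This band, 11q22, is known as a site of gene amplification in squamous carcinomas, and no DNA copy number was measured here.

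Genes often listed as targets of YAP1 and its TEAD partners differed less. Of 12 members, YAP1 included, 6 were called higher in SCC6 and 2 in SCC1, and YAP1 itself was the only one at least 4-fold apart. The tissue factor gene F3 had 705 ± 102 CPM in SCC1 and 2495 ± 365 CPM in SCC6, the junction scaffold AMOTL2 178 ± 15.1 and 449.5 ± 102 CPM, and the DNA-binding partner TEAD1 134 ± 6.06 and 297 ± 31.1 CPM. CTGF, a secreted matricellular protein, was higher in SCC1 (189.6 ± 40.7 against 77.0 ± 25.8 CPM), and ANKRD1, a nuclear ankyrin-repeat protein (0.82 ± 0.37), and CYR61, a relative of CTGF (0.38 ± 0.19), were not called. Both were called higher in SCC1 in some alternatives, ANKRD1 for example with DESeq2 (0.81) and with a day block (0.82), and CYR61 over days 1 to 5 (0.45). With the flow cell in the fit the difference was 2.93 for ANKRD1, which is past 4-fold, and 1.06 for CYR61, and the median of the list moved from -0.43 to -0.85.

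The highest run, with a median of 3.67, lay on chromosome X from CXorf57 to DOCK11 (chrX:105855160-117820126). Of its 25 genes, 15 were at least 4-fold higher in SCC1, and the first 14, from CXorf57 to COL4A5, were all among them. PSMD10, a proteasome regulator, had 41.3 to 48.1 CPM in SCC1 and 0 to 0.289 CPM in SCC6, the nucleotide synthesis enzyme PRPS1 47.7 to 54.8 and 0.311 to 1.13 CPM, and the RNA-binding protein gene RBM41 15.9 to 22.3 and 0 to 0.144 CPM. SCC6 levels of these broadly used genes were thus at or close to 0. MID2, a ubiquitin ligase, had no counts in SCC6. TBC1D8B (23.0 against 5.45 CPM) and MORC4 (29.2 against 4.62 CPM), near the start of the run, kept clear expression in SCC6. After COL4A5 the lines lay closer in the next 10 genes, from NXT2 (0.27 ± 0.11) to WDR44 (0.78 ± 0.08), among them ACSL4 at 0.43 ± 0.13 and PLS3 at -0.06 ± 0.07. The last gene, DOCK11, which encodes a guanine nucleotide exchange factor, was again at least 4-fold higher in SCC1 (9.21 ± 0.685 against 0.725 ± 0.329 CPM, 3.68 ± 0.23). The run had a median of 3.43 without SCC6 days 0 and 1 and of 2.65 in the cetuximab libraries.

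On 9p21, CDKN2A, which encodes the cell cycle inhibitor p16, had 7.51 to 13.8 CPM in SCC1 and no counts in SCC6 (at least 688-fold higher in SCC1), and its neighbour CDKN2B (p15) had 12.8 to 16.2 CPM in SCC1 and 1 count over all SCC6 libraries. MTAP, next to CDKN2A and encoding a methionine salvage enzyme, was expressed in both lines and higher in SCC6 (57.4 ± 2.97 against 89.6 ± 13.5 CPM). Over 15 tested members of the 9p21 list, 8 were called higher in SCC1 and 3 in SCC6. Chromosome 19 as a whole leaned to SCC6, with 644 of its 1058 tested genes called higher there and 122 higher in SCC1, a median of -0.68 that moved between -1.05 with the flow cell in the fit and -0.47 with total-count scaling. Within it, the run from PLPPR2 to ZNF625 had 23 of 25 genes called higher in SCC6 (median -1.94), most of them zinc finger genes whose sequences resemble each other. For example, ZNF844 had 0.509 ± 0.170 against 46.0 ± 12.7 CPM. On chromosome 22 a run from PACSIN2 to RNU6-1161P had 24 of 25 genes called higher in SCC6 (median -1.71). Chromosomes X (median 0.53, 279 genes higher in SCC1 and 118 in SCC6) and 17 (0.38, 503 and 165) leaned to SCC1.

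**Figure D4:**
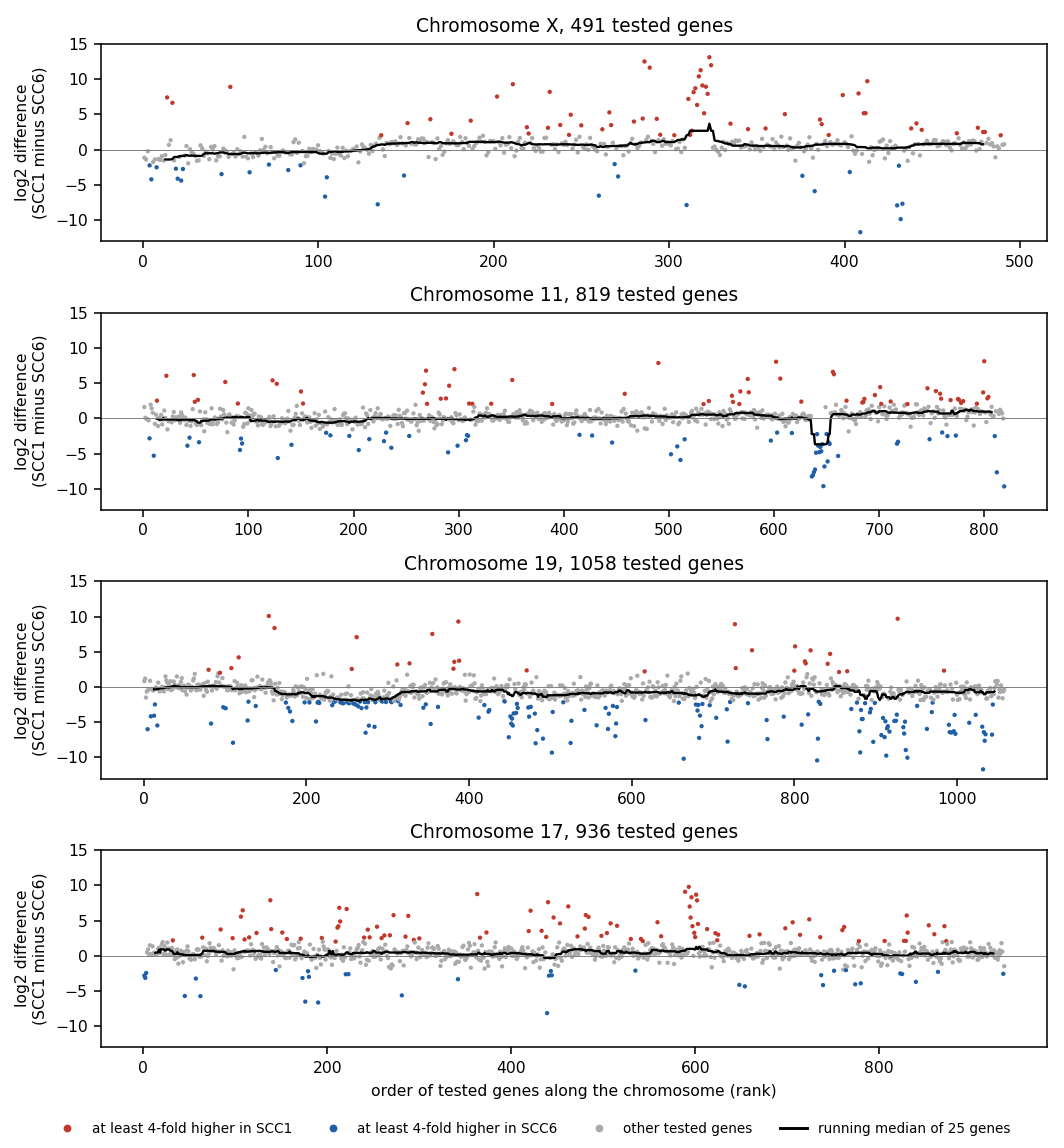
Difference between the lines (vertical axis, log2 SCC1 minus SCC6) for the tested genes of chromosomes X, 11, 19 and 17 in their order along the chromosome (horizontal axis, rank), with genes at least 4-fold apart in red (SCC1 higher) or blue (SCC6 higher) and the running median of 25 genes as a black line. The line departs from 0 upwards most at one place on X and downwards most at one place on 11, and lies below 0 over most of chromosome 19.

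The labels give hydrocortisone in the medium of SCC1, which acts through the glucocorticoid receptor NR3C1. Of 19 tested members of the list of that receptor and its targets, 11 were called higher in SCC1 and 5 in SCC6. FKBP5, a chaperone that the receptor induces (94.8, 118 and 167 CPM against 31.9, 38.3 and 43.5 CPM), PER1, a clock gene (1.55 ± 0.18), the transcriptional repressor ZBTB16 (1.58 ± 0.27) and the metallothionein MT2A (1444 ± 457 against 297 ± 87.5 CPM) were higher in SCC1. TSC22D3, a classical target, had 6.42 to 20.8 CPM in SCC1 and at most 0.0341 CPM in SCC6, but it lies in the run on chromosome X described above. DUSP1 (-2.09 ± 0.39), CRISPLD2 (-2.04 ± 0.34) and SGK1 (-0.71 ± 0.16), also known as targets, were higher in SCC6, as was NR3C1 itself (67.5 ± 6.46 against 115 ± 19.7 CPM). With the flow cell in the fit, which sets SCC1 day 5 against SCC6 days 0 and 1, these 4 differences kept their sign but were no longer called (-0.81, -0.57, -0.44 and -0.51 in the same order).

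The remaining lists cover general cell functions and other pathways. Over all tested genes, 34.6% were called higher in SCC1 and 34.0% higher in SCC6. Of 25 cell cycle and proliferation genes 14 were called higher in SCC6 and 4 in SCC1, none of them 4-fold, with a median of -0.41 that shrank to -0.20 under total-count scaling, where the counts were 9 and 7. CCND2 and the inhibitors named above set the G1 list apart, in which 5 of 20 genes were at least 4-fold higher in SCC1, among them the death receptor FAS (42.6 ± 1.10 against 7.47 ± 1.13 CPM), and 1 was at least 4-fold higher in SCC6, the stress cytokine GDF15 (3.45 ± 0.950 against 70.3 ± 56.9 CPM). WNT and Notch genes had 10 of 17 tested members called higher in SCC6, 8 of them at least 4-fold, and 5 in SCC1. The secreted WNT antagonists went opposite ways, with SFRP1 at 0.148 ± 0.0424 CPM in SCC1 and 24.1 ± 2.76 CPM in SCC6 and DKK3 at 143 ± 23.6 and 3.44 ± 0.941 CPM. WNT5A, a non-canonical ligand (0.00847 against 5.52 CPM), WNT7B (-3.83 ± 0.27) and the receptor NOTCH3 (-2.45 ± 0.19) were higher in SCC6. TGF-beta ligands and direct targets had 11 of 18 called higher in SCC6, among them the decoy receptor BAMBI (0.0527 ± 0.0481 against 6.33 ± 1.47 CPM) and the feedback inhibitor PMEPA1 (-2.88 ± 0.18), and 3 in SCC1 (6 without SCC6 days 0 and 1), and aryl hydrocarbon receptor and retinoid genes 10 and 4 of 16. For 7p11 genes, where EGFR lies, 10 of 12 tested members were called higher in SCC6 and 1 in SCC1, none 4-fold, with a median of -0.90. Integrin and laminin subunits had 9 of 21 called higher in SCC1, led by the laminin chain LAMA1 (131 ± 14.1 against 0.556 ± 0.0861 CPM), and 6 in SCC6, led by ITGB8 (-3.07 ± 0.24). The shares of this list that were called (71.4%) and at least 4-fold apart (14.3%) were close to those of all tested genes (68.5% and 14.0%). All 18 tested desmosome and tight junction genes of 23 were called, 13 higher in SCC6 and 5 in SCC1 (12 and 3 of 19 without SCC6 days 0 and 1), with the plakophilin PKP1 at 26.5 ± 7.65 CPM in SCC1 and 0.932 ± 0.404 CPM in SCC6.

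NRF2 targets and xenobiotic metabolism genes had 8 of 24 tested members called higher in SCC1 and 10 in SCC6, the largest of these the glutathione peroxidase GPX2 (0.514 ± 0.127 against 35.9 ± 10.8 CPM). Of 22 tested glucose, glycolysis and hypoxia genes 9 were called higher in SCC1 and 8 in SCC6, the transporter SLC2A3 (-4.38 ± 0.44) and the hydroxylase EGLN3 (6.15 ± 0.29) standing at the ends. ATF4 and amino acid synthesis genes had 2 of 20 called higher in SCC1 and 10 in SCC6, cholesterol and fatty acid synthesis genes 6 and 7 of 18, and apoptosis regulators 5 and 9 of 18, with BIRC2 and BIRC3 the only members of the last at least 4-fold apart. Of tested members, 75% were called in the NRF2 list, 77.3% in the glucose list and 60% in the ATF4 list. The cholesterol list had 72.2% and the apoptosis list 77.8%. These shares were near the 68.5% of all tested genes. Genes of 11q13, where CCND1 lies, had 5 of 11 tested members called in each direction, and those of 3q26 to 3q28, where TP63 lies, 2 of 16 called higher in SCC1 and 7 in SCC6 (3 and 11 without SCC6 days 0 and 1), none of them 4-fold. Of 15 neuronal and neuroendocrine genes 7 were tested, 5 called higher in SCC1 and 1, the ubiquitin hydrolase UCHL1 (-1.98 ± 0.19), in SCC6. Of 27 cancer-testis antigens, genes that most adult tissues keep silent, 5 were tested. PRAME (5.68 to 7.51 CPM) and MAGEC2 (2.07 to 3.65 CPM) were present in SCC1 with no counts in SCC6, whereas MAGEA12 (5.77 to 6.98 CPM) and CSAG1 (2.54 to 4.55 CPM) were present in SCC6 and at or near 0 in SCC1, all members of X-linked families or gene clusters whose close copies can share reads.

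The difference between the lines was not the same on every day for all genes. The line-by-day term was called for 4192 of 17976 genes (23.3%) and 6844 had an unadjusted p under 0.05. The count fell to 1050 without SCC1 day 0, to 2776 without SCC1 day 1, to 2128 without SCC6 day 0 and to 2793 without SCC6 day 1, and to 1542 with the flow cell in the fit. It was 2873 without SCC1 day 4 and 2920 without SCC6 day 5, and the day cannot be fully told apart from the flow cell. CSF3, the granulocyte colony-stimulating factor, had 2.82, 7.98, 18.1, 43.2, 112 and 96.2 CPM in SCC1 on days 0 to 5 and 1.05, 1.13, 0.307, 0.305, 0.288 and 0.144 CPM in SCC6. It rose in one line and stayed low in the other, with a slope difference of 1.69 ± 0.19 log2 units per day. MMP1 had 3.31, 2.79, 12.4, 25.6, 28.8 and 23.9 CPM in SCC1 and 4866, 2200, 1782, 1360, 606 and 294 CPM in SCC6, and KRT6B 0.914, 0.711, 0.911, 1.14, 1.61 and 3.19 and 223, 162, 84.6, 48.2, 23.6 and 12.6 CPM. Both were lower in SCC6 with every day, and remained above SCC1 on day 5. IGFN1, a muscle-type immunoglobulin protein (1.12 per day), and ANPEP, an aminopeptidase (0.94 per day), completed the 5 largest upward slopes.

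Downward slopes were led by genes with few counts in one line. RP11-269F21.3 (-1.44 per day), a transcript of undescribed function, SRGN (-1.40) and PSMD10 (-0.77) had 6, 3 and 17 counts in all in their lower line. PSMB9 (-0.80) had 0.113, 0.0939, 0.205, 0.343, 1.10 and 1.52 CPM in SCC6 on days 0 to 5. EIF3CL (-0.81), a near-identical copy of the translation factor gene EIF3C with which it shares reads, is uncertain for that reason. YAP1, EGFR and KRT5 kept their order between the lines on every day. HBEGF, whose range in SCC1 was wide, had 21, 34.5, 71.1, 106, 103 and 72.8 CPM there and 525, 423, 411, 403, 394 and 329.9 CPM in SCC6, so that the lines were nearer to each other on days 2 to 5 than on days 0 and 1 (0.53 ± 0.12 per day).

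**Figure D5:**
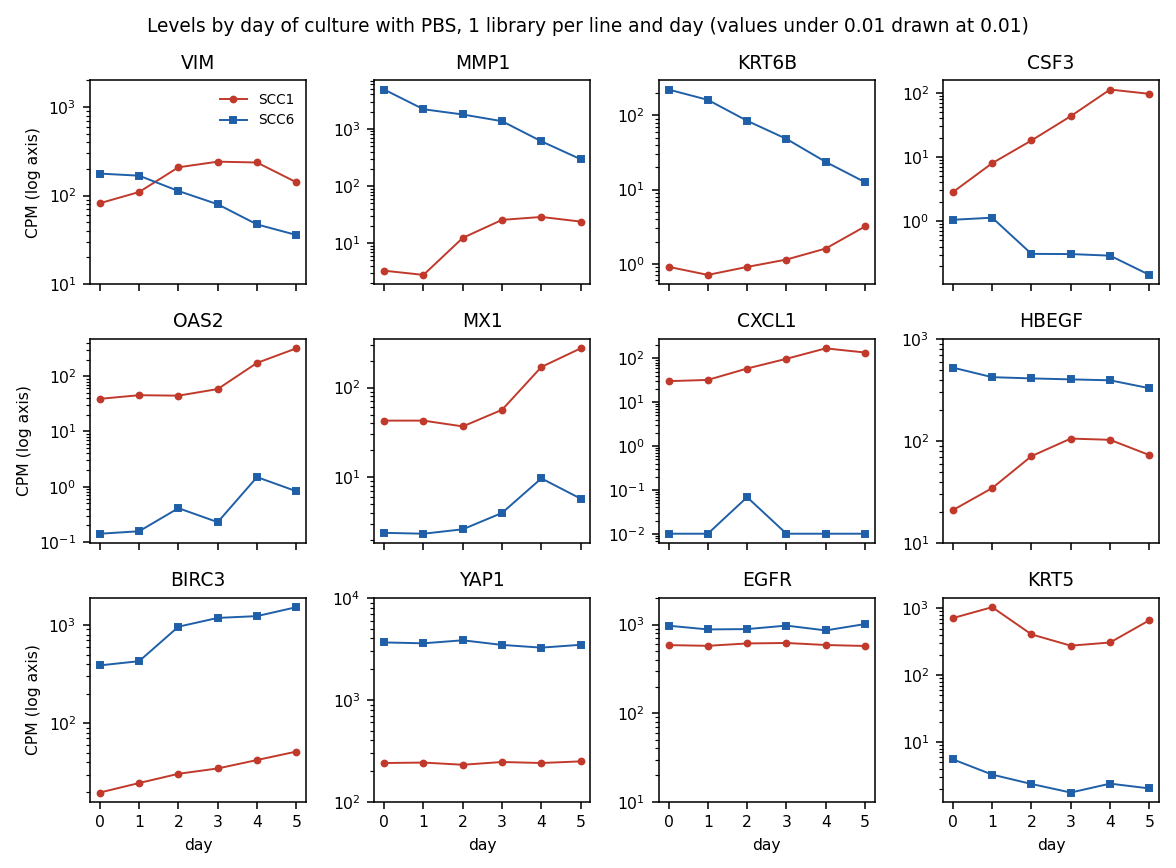
Level of 12 genes by day of culture with PBS (horizontal axis, day; vertical axis, CPM on a log axis; red SCC1, blue SCC6; 1 library per point, values under 0.01 drawn at 0.01). VIM crosses between days 1 and 2, MMP1 and KRT6B are lower in SCC6 on each later day, interferon genes OAS2 and MX1 rise in SCC1 after day 3, and YAP1 and EGFR stay level.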

How the data were processed

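The series holds 33 bulk RNA libraries of HNSCC lines, of which the 12 libraries of SCC1 and SCC6 with PBS were compared and 10 cetuximab libraries were read beside them. RNA with an integrity number of at least 7 was made into stranded poly(A)-selected libraries and run on HiSeq flow cells. The deposited values are estimated counts per gene symbol, unnormalised, which the authors made with Salmon 0.8.2 (submitters' processing notes, which also name hg19 and GRCh37). The transcript annotation is not given in the sources used here. Over the 33 libraries 63.2% of the values, zeros included, were exactly whole (no tolerance), so all were rounded. Of 56470 symbols, 17230 were at 0 in all 12 libraries and 21264 others failed the filter on low counts.

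Genes were tested with edgeR 4.0.16 (quasi-likelihood, TMM factors, filterByExpr by line, Benjamini-Hochberg adjustment over all tested genes, R 4.3.3, limma 3.58.1) without covariates, and called at an adjusted p under 0.05. CPM used TMM-scaled totals. A gene at 0 counts in a line was bounded by 3 counts over its 6 libraries, and exact Poisson intervals (95%) were given for 1 to 3 counts. Such bounds and intervals cover counting error only. Labels give no separate cultures beyond the day, so that the spread measures culture day and technical variation together. Days did not pair the lines, and no block was used.

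Members and gene lists were chosen with earlier results of these data known. Named were genes the study discusses, the 12 largest non-overlapping differences per direction (mean level, log2 CPM 3 or above), the 5 largest line-by-day slopes per direction, list members, with those of largest difference first or whose role is described, and members of the runs of 25 neighbouring genes. XIST and chromosome Y were left out. The 41 lists are those whose counts are given in the results. Of the symbols, 34694 matched the GRCh37 annotation directly and 1335 by an older symbol, and 11757 of 17976 tested genes had a RefSeq promoter window.

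DESeq2 1.42.0, other scaling, no filter, omitted libraries, a day block, flow cell terms and a GC correction were tried as alternatives. Those without SCC6 days 0 and 1, over days 2 to 5 and with a GC correction were chosen after seeing the data. The edgeR test was tested on simulated data: for the line comparison it recovered 71.7% of 198 genes changed by 1 on the log2 scale and 96.8% of 190 changed by 2, and for the line-by-day term 0 of 196 changed by 1 and 36.9% of 198 changed by 2 over the 5 days. Far fewer genes were changed there than were called in the data, and the simulated spread came from the fit without day. These shares therefore do not give the power in these data. No column of the table was left unmapped. Some list members are counted with their lists but not reported here by name.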

Additional observations from a re-analysis of the deposited data

Results flagged for a closer look

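Among 370 sets of 6 libraries, each 1 named gene in 1 line, 16 held a library that lay farther from its nearest neighbour, relative to the range, than Dixon's 95% limit for 6 values (0.625), where chance gives about 1 in 20. In SCC1 day 5 these were ATF3 at 50.3 CPM (24.1 to 29.4 in the other libraries), ELF3 at 13.5 CPM (3 to 6.22), KRT6B at 3.19 CPM (0.711 to 1.61) and SERPINB3 at 1.98 CPM (0.244 to 0.728). In SCC1 day 0 CTGF was low at 109 CPM (191 to 214), BIRC2 low at 70.6 CPM (79.6 to 83) and CXorf57 high at 4.26 CPM (2.12 to 2.82). In SCC1 day 1 CDH2 was high at 35.5 CPM (23.9 to 28.2), DOCK11 low at 7.87 CPM (9.13 to 9.71) and WDR44 low at 33.1 CPM (37.2 to 38.6). In SCC6 day 0 MMP10 was high at 233 CPM (9.53 to 67.9), PDPN high at 6.81 CPM (3.14 to 4.47) and SRSF8 high at 28.5 CPM (19.9 to 22.8). In SCC6 day 5 MMP13 was high at 59.3 CPM (13.5 to 28.7) and CNTN5 high at 15 CPM (12.4 to 13.4), and in SCC6 day 4 JUND was high at 53.1 CPM (32.3 to 39.4). SCC1 day 5 and SCC6 day 0 share flow cell C, and its part in these values was not tested.

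The difference between the lines changed with day for 4192 genes by the test of the line-by-day term in edgeR. Where the mean level reached a log2 CPM of 3, the slope difference in log2 units per day was largest for CSF3 (1.69, adjusted p = 0.00032), MMP1 (1.45, 0.00032), KRT6B (1.25, 1.2e-05), IGFN1 (1.12, 0.0038) and ANPEP (0.94, 0.00052). In the other direction it was largest for RP11-269F21.3 (-1.44, edgeR adjusted p = 0.012), SRGN (-1.40, 0.019), EIF3CL (-0.81, 0.0064), PSMB9 (-0.80, 0.00057) and PSMD10 (-0.77, 0.0083).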

How the results depend on the processing

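The counts of genes called between the lines stayed within 1.5 times of 12316 under every alternative tried, from 9705 with the flow cell as a covariate to 14750 without a filter on low counts, and leaving out 1 library gave 12016 to 12717. Genes at least 4-fold apart numbered 2152 (GC trend removed, 15294 genes tested) to 3155 (flow cell C) under the other alternatives and 4793 without the filter, where 39240 genes were tested. Leave-one-out gave 2559 to 2660. Genes called in the same direction in the cetuximab libraries numbered 2291 to 2393. The line-by-day count ranged from 1050 to 5198 over the omitted libraries, being 1050 without SCC1 day 0, 2128 without SCC6 day 0, 2776 without SCC1 day 1 and 2793 without SCC6 day 1, and 1542 once flow cell entered as a covariate. The cause was not tested. Fitting the day as a block (replicate block) gave 12008 calls, of which 2526 at least 4-fold. Libraries of the same day did not deviate together (correlations -0.275 to 0.343 over 9703 genes, positive only on day 5), so that the days give no pairing.

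Over 227 named and tested genes and their alternatives, 5330 of 5445 values kept sign and call, 42 lost a call (18 of them with the flow cell as a covariate), 47 gained one and 26 turned sign. Of the 213 called genes 1 turned sign, SRSF8 (-0.078 with flow cell as a covariate, -0.043 within flow cell C). The other reversed values belong to genes that were not called over the 12 libraries. With the flow cell as a covariate and within flow cell C they were -0.48 and -0.45 for ANPEP, -0.23 and -0.19 for AXL, 0.25 and 0.29 for EPCAM, -0.27 and -0.24 for PLAU, 0.081 and 0.12 for PLS3, and -0.29 and -0.25 for VIM. Total-count scaling gave 0.036 for EPCAM and 0.15 for PLS3, the GC correction -0.037 for AXL and 0.093 for PLS3, omission of SCC6 days 0 and 1 gave 0.076 for KRT17 and -0.007 for CD274, and days 2 to 5 gave 0.019 for KRT17. Leaving out 1 library turned the sign of AXL (-0.018 to 0.124), CD274 (-0.066 to 0.299) and VWF (-0.048 to 0.476). Only flow cell C held libraries of both lines, so that both flow cell settings set SCC1 day 5 against SCC6 days 0 and 1 and are not separate checks. No alternative with reduced depth was run.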
